A study of Mus musculus with 6 samples.

Results

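The acyl-CoA thioesterases described here are 8 genes of the Acot family, measured in hippocampus on 3 wild type arrays and 3 arrays of line L26, a transgenic mouse line. The genes are Acot1, Acot2, Acot6, Acot7, Acot8, Acot9, Acot11 and Acot13, out of 18193 genes named on the array. Every probe set annotated to exactly 1 of these symbols was taken, which gave 11 of the 45037 probe sets tested. The family was selected on the L26 against wild type values of these same arrays, so its differences in that comparison are a description. They carry no p-value, and a call is given only to place the values among all probe sets.

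L26 mice carry daDREAM, a dominant active mutant of DREAM, the calcium-binding transcriptional repressor encoded by Kcnip3. The animals were adult males, homozygous for the transgene, and their controls were wild type littermates, all on the background C57B6xCBA. No stimulus or treatment is labelled, and the question was which transcripts differ at rest when the mutant is present. L26 is 1 line, and the sources used here give neither the promoter of the transgene nor the number of animals per array. Limma p-values set a group difference against the spread between these arrays, moderated over all features fitted. Values are RMA log2 levels, 1 per probe set and array, so that a difference of 1 is a doubling, and levels of different probe sets cannot be compared with each other.

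Acyl-CoA thioesterases split fatty acyl-CoA into the free fatty acid and coenzyme A, and so act against the acyl-CoA synthetases that activate fatty acids. The family has 2 unrelated structural classes that perform the same reaction. Type I enzymes (Acot1 to Acot6 in the mouse) have an alpha/beta-hydrolase fold, are encoded side by side on chromosome 12 and differ in their compartment: cytosol for Acot1, mitochondria for Acot2 and peroxisomes for Acot6. Type II enzymes (Acot7 to Acot13 here) have a hotdog fold and lie outside that cluster, with Acot7 and Acot11 both on chromosome 4 but apart from each other. In liver and heart, fasting and PPAR alpha induce the type I genes, while Acot7 is the abundant thioesterase of brain and is found mainly in neurons.

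Median levels were 7.27 to 7.29 on the wild type arrays and, slightly higher, 7.30 to 7.32 on the L26 arrays. Kcnip3 read 10.21 to 10.38 in wild type and 10.09 to 10.20 in L26 on 1 probe set (difference -0.17, SE 0.07), and 9.41 to 9.64 against 9.17 to 9.26 on the other (-0.32, SE 0.07). The latter passed the threshold as lower (limma, adjusted p = 0.0393) and the former did not (adjusted p = 0.208). Whether these probe sets cover the transgene is not known here, so they do not check the labels. All 12 markers of hippocampal pyramidal and granule cells were measured above the lower quartile of the array (5.95). Most probe sets lie above that quartile, so these levels do not check the tissue label. The list means per array were 10.14 to 10.17 in wild type and 10.36 to 10.41 in L26. Of 16 general neuronal markers 0 passed the threshold (limma, 1 higher and 2 lower at an unadjusted p under 0.05), and their list mean per array was 12.55 to 12.64 in wild type against 12.58 to 12.60 in L26.

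The bases before the start sites of Acot1, Acot2 and Acot11 are shown for orientation. Acot1 and Acot11 have the 2 member probe sets past the threshold, Acot2 is the neighbour of Acot1, and Acot11 has 2 annotated starts. Each line gives the 250 bases upstream of a RefSeq start site on assembly GRCm38.p6, 5′ to 3′ on the strand of the gene. Capitals mark GTCA or its reverse complement TGAC, the core letters of the downstream regulatory element that DREAM binds.
Acot1, chr12:84009252-84009501, plus strand: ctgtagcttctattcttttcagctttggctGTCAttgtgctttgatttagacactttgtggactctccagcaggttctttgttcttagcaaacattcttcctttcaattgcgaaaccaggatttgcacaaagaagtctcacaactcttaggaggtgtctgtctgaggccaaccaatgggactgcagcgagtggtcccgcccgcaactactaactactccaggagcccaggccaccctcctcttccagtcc
Acot2, chr12:83987611-83987860, plus strand: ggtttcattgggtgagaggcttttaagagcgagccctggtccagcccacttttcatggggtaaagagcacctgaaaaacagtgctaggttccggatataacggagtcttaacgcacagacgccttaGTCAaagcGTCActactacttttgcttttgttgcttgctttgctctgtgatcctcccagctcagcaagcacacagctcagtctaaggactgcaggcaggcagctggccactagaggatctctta
Acot11 start A, chr4:106805008-106805257, minus strand: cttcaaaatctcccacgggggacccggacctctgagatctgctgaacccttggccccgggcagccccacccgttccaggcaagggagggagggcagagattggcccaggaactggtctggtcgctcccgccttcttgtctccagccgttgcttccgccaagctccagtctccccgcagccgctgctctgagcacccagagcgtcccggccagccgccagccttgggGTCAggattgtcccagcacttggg
Acot11 start B, chr4:106799832-106800081, minus strand: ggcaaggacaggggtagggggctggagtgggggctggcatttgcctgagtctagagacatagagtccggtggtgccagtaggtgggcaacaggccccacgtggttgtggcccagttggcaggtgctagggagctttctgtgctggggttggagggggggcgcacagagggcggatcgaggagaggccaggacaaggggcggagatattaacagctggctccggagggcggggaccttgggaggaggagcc

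The upstream windows of the members hold 0 to 3 matches each. The window of Acot1 has 1 match, 220 bases before the start, that of Acot2 has 2, and those of Acot11 have 1 and 0. Across all 32851 windows of this length in the RefSeq table, 80.2% hold at least 1 match on either strand and the median is 2. Windows were found for 6 of the 8 members (not for Acot6 and Acot13), and among those not shown Acot8 had 3 matches, Acot9 had 1 and Acot7 had 0. The nuclear receptor site AGGTCA was found on neither strand of any of these 7 windows (14% of all windows hold it). Its direct repeat with a spacer of 1 base, the form bound by PPARs, was also not found with up to 2 mismatches (3.2% of all windows). A match is a string of letters and not a shown binding site, and the lack of one concerns these windows only. Bases after the start sites were not searched, so the counts do not cover an element lying downstream of a start. In a global alignment the windows of Acot1 and Acot2 were 46.7% identical, within the 42.6% to 50.2% seen over all pairs of member windows.

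Among the type I genes, Acot1 had the largest difference of the family. Probe set 1449065_at read 7.99, 8.08 and 7.87 in wild type and 8.54, 8.54 and 8.50 in L26. All L26 arrays lay above all wild type arrays, by a gap wider than the range within either group. The means were 7.98 ± 0.11 and 8.53 ± 0.02 (SD, n = 3), a difference of 0.55 (SE 0.07) or 1.46-fold, past the limma threshold of an adjusted p of 0.05 over all probe sets. Of all 45037 probe sets, 0.48% had a difference this high or higher. Acot1, the cytosolic enzyme for long-chain acyl-CoA, is a gene that fasting raises strongly in liver.

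Acot2, its mitochondrial neighbour, had smaller differences. On 1439478_at the wild type arrays read 9.11, 9.13 and 9.15 and the L26 arrays 9.32, 9.35 and 9.33. The groups were tight and separate, with means of 9.13 ± 0.02 and 9.33 ± 0.02 (SD, n = 3) and a difference of 0.20 (SE 0.05, 1.15-fold). The dimmer probe set 1422996_at read 6.73, 6.35 and 6.68 in wild type and 6.82, 6.75 and 6.71 in L26. Here the groups overlapped, since the highest wild type array (6.73) lay above the lowest L26 array (6.71). The difference was 0.17 (SE 0.10), and 0.055 without wild type replicate 2, the array at 6.35. Neither Acot2 probe set passed the threshold over all probe sets.

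A further probe set, 1422997_s_at, is annotated to both Acot1 and Acot2 and is therefore no member. It read 8.37, 8.51 and 8.49 in wild type and 8.93, 8.93 and 8.94 in L26, a difference of 0.48 (SE 0.06). Its groups were as clearly apart as those of the Acot1 probe set, but how much of its signal comes from each gene cannot be read from the array. Sequences that paralogs share can also reach the probe sets with a single symbol, although none of the 11 members carries the suffix _x_at or _s_at.

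Acot6, a peroxisomal enzyme, lies at the other end of the cluster. Probe set 1428803_at read 7.98, 7.90 and 7.99 in wild type and 8.17, 8.18 and 8.32 in L26. All L26 values were above all wild type values, with means of 7.96 ± 0.05 and 8.22 ± 0.08 (SD, n = 3) and a difference of 0.27 (SE 0.06, 1.20-fold). It did not pass the threshold over all probe sets. The second Acot6 probe set, 1460388_at, is close to the lower quartile of the array and read 6.04, 6.13 and 6.17 against 6.24, 6.17 and 6.27. These groups touched at 6.17, and the difference was 0.11 (SE 0.06).

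**Figure D1:**
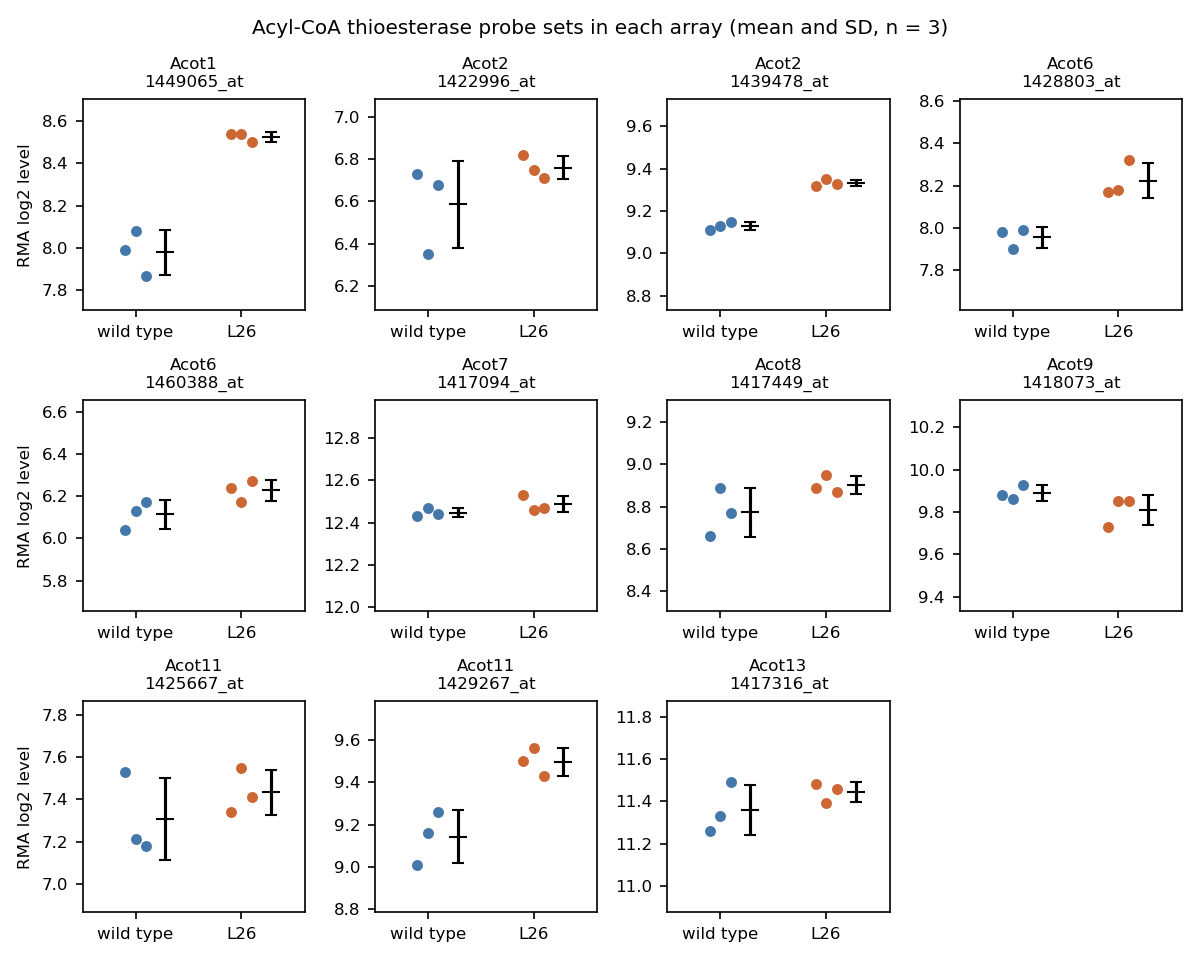
RMA log2 level of each of the 11 member probe sets in the 3 wild type (blue) and 3 L26 (orange) arrays, with the mean and SD of each group beside the points and the same span of 1 log2 unit on every vertical axis. All L26 points lie above all wild type points for Acot1, Acot2 1439478_at, Acot6 1428803_at and Acot11 1429267_at, and below them for Acot9.

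Among the type II genes, Acot11 had a difference on 1 of its 2 probe sets. Acot11 encodes a long-chain thioesterase of brown fat that carries a lipid-binding START domain. Probe set 1429267_at read 9.01, 9.16 and 9.26 in wild type and 9.50, 9.56 and 9.43 in L26. The groups did not overlap, with means of 9.14 ± 0.13 and 9.50 ± 0.07 (SD, n = 3) and a difference of 0.35 (SE 0.07, 1.28-fold) past the threshold. The other probe set, 1425667_at, read 7.53, 7.21 and 7.18 in wild type and 7.34, 7.55 and 7.41 in L26. Its groups overlapped because 1 wild type array was nearly as high as the highest L26 array, and its difference was 0.13 (SE 0.10), with 0.24, 0.08 and 0.06 without wild type replicates 1, 2 and 3 in turn and 0.07 without L26 replicate 2. Leaving out wild type replicate 3 kept the Acot11 call, while leaving out any of the other 5 arrays ended it, with differences from 0.29 to 0.41 over these fits. The replicate block described in the closing section ended it too.

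The remaining type II members differed little. Acot7, the main cytosolic thioesterase of neurons, read 12.43, 12.47 and 12.44 in wild type and 12.53, 12.46 and 12.47 in L26. Its signal is brighter than that of 98.2% of probe sets, the groups overlapped, and the difference was 0.04 (SE 0.05). Acot13, a small enzyme associated with mitochondria that binds the phosphatidylcholine transfer protein, read 11.26, 11.33 and 11.49 against 11.48, 11.39 and 11.46. Its highest wild type array lay above all L26 arrays, and the difference was 0.08 (SE 0.07).

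Acot8, a peroxisomal thioesterase of broad specificity, read 8.66, 8.89 and 8.77 in wild type and 8.89, 8.95 and 8.87 in L26. Its highest wild type array reached the level of the L26 arrays, and the difference was 0.13 (SE 0.07). Acot9, a mitochondrial enzyme, was the only member with a lower mean in L26, at 9.88, 9.86 and 9.93 against 9.73, 9.85 and 9.85. The groups were apart only by the step from 9.86 to 9.85, and the difference of -0.08 (SE 0.06) did not pass the threshold. A probe set shared by Acot9 and Acot10, which is no member, read 9.71, 9.77 and 9.80 against 9.61, 9.73 and 9.81, with overlapping groups and a difference of -0.04 (SE 0.07).

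Counted together, 10 of the 11 member probe sets had a higher mean in L26 and 1 a lower one, with a median difference of 0.13 against 0.013 over all probe sets. Past the threshold were 2 higher and 0 lower, where 1.98% of all probe sets passed as higher and 1.94% as lower. That background is 892 higher and 872 lower, and it turned to 717 and 1149 when arrays were centred on their medians. Centring left the counts of member probe sets at 2 and 0. The groups did not overlap for 4 members that were higher and 1 that was lower, beside 12.5% and 9.32% of all probe sets. Nothing is read from these shares, because the family was chosen with the contrast known.

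With 1 probe set per gene (the one with the highest mean over all arrays), Acot2 and Acot6 also passed, so that 4 of 8 member genes were higher and 0 lower. In that fit of 18193 genes 2.63% passed as higher and 2.57% as lower. The values of these 4 probe sets are the same in both fits, and the features fitted and adjusted over are not. Without wild type replicate 3 the count fell to 2 genes, and without any other single array to 1. Acot1 passed in each of these fits.

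**Figure D2:**
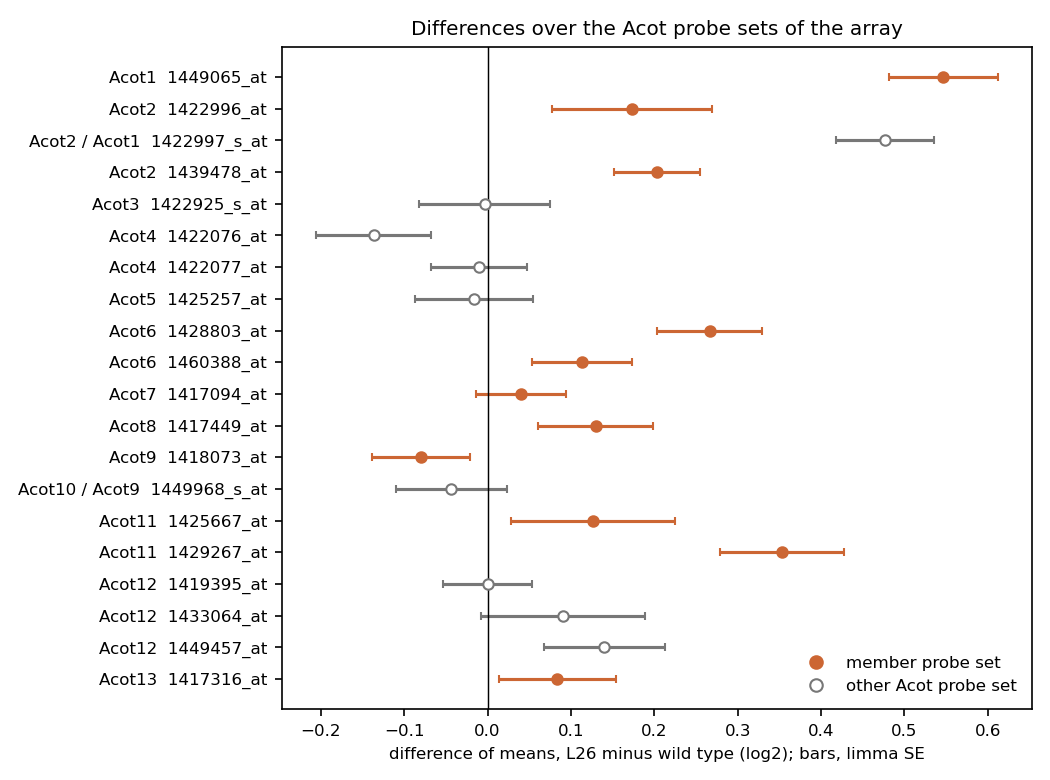
Difference of means (L26 minus wild type, log2) with its limma standard error for the 20 probe sets annotated to Acot genes. Filled points are the 11 members and open points the 9 other probe sets, and the points farthest to the right are Acot1 at 0.55 and the probe set shared by Acot1 and Acot2 at 0.48.

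The type I genes are neighbours, in the order Acot2, Acot1, Acot4, Acot3, Acot5 and Acot6 along chromosome 12. The 3 genes between Acot1 and Acot6 are no members and had differences of -0.14 (SE 0.07) for Acot4, -0.003 (SE 0.08) for Acot3 and -0.02 (SE 0.07) for Acot5, none past the threshold (limma, adjusted p = 0.297, 0.983 and 0.924). The Acot3 probe set carries the suffix _s_at, which marks probes that several transcripts share, and the signs for Acot3 and Acot5 turned positive when certain single arrays were left out. For Acot4 this probe set was 1422076_at, whose L26 values all lay below wild type, by the step from 6.91 to 6.90. The other Acot4 probe set, 1422077_at, had -0.01 (SE 0.06) with overlapping groups. On these probe sets the higher values were seen at both ends of this row of genes and not between. The probe sets between were dimmer, with 42.9% and 20.4% (Acot4), 52.7% (Acot3) and 30.7% (Acot5) of all probe sets below them. Those of Acot2, Acot1 and Acot6 had 77.2%, 64.4% and 62.1% below them. Without detection calls, a missing difference on the dimmer probe sets cannot be told from a missing signal. Of the 6 measured genes on each side of the cluster, 0 of 12 passed (limma, 0 higher and 4 lower at an unadjusted p under 0.05), with differences from -0.26 to 0.10.

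Around the members on other chromosomes the neighbours did not pass either. Over all 72 measured neighbours of the cluster and of the 5 other members, 0 passed, while at an unadjusted p under 0.05 there were 1 higher and 9 lower. That is 13.9% of the neighbours, beside 20.3% of all genes. The 12 neighbours of Acot11 ranged from -0.35 to 0.07, and 0 of them had an unadjusted p under 0.05.

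**Figure D3:**
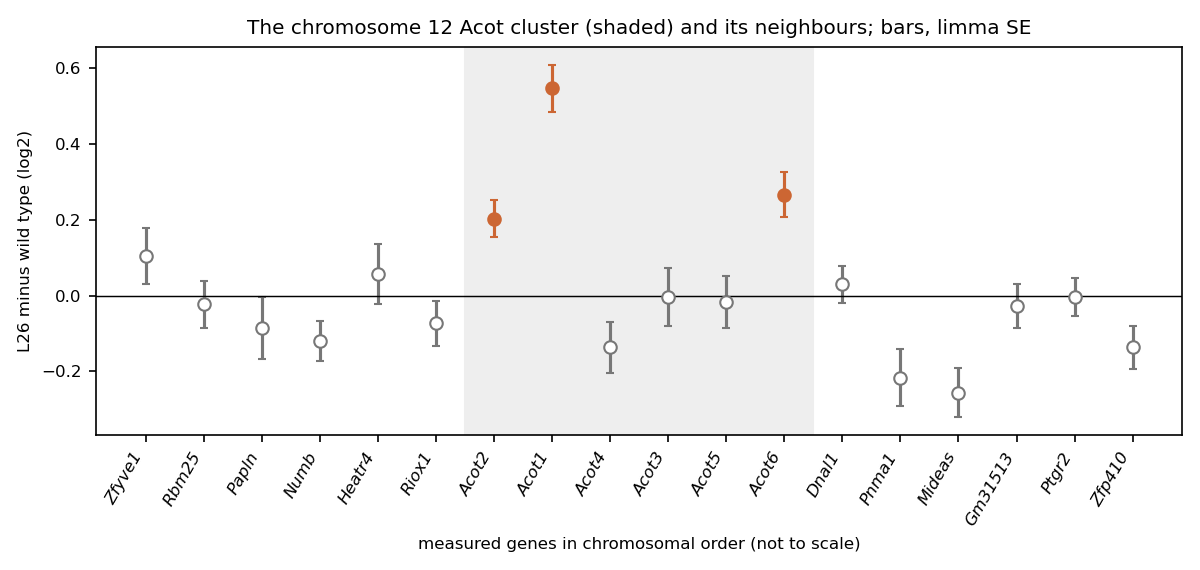
Difference of means (L26 minus wild type, log2) with its limma standard error for the chromosome 12 cluster (shaded) and 6 measured genes on each side, in chromosomal order and not to scale. The members Acot2, Acot1 and Acot6 (filled) lie at 0.20, 0.55 and 0.27, while Acot4, Acot3, Acot5 and the flanking genes lie between -0.26 and 0.10.

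The genes whose 6 values followed a member most closely were found by the root mean square difference after subtracting each gene's wild type mean. For Acot1 these were C920006O11Rik (0.056), Cd52 (0.069) and Gm266 (0.07), with differences of 0.61, 0.56 and 0.50. For Acot11 1429267_at they were Tmem100 (0.02), Rhbdl2 (0.035) and Esam (0.043), with differences of 0.37, 0.35 and 0.33. Tmem100 and Esam are known from endothelium, and Esam belongs to the vascular marker list used here, as none of the other matches does. The measure keeps the group difference, so it mostly ranks genes by a similar difference and does not show a shared cell type.

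Markers of several cell types were also higher on the L26 arrays. Of 17 vascular markers 9 were higher, 0 lower and 8 did not pass, led by the endothelial tight junction gene Cldn5 (0.95, SE 0.08, limma adjusted p = 0.000334). Their mean per array was 8.27 to 8.35 in wild type against 8.62 to 8.70 in L26 (exact permutation p = 0.1, the smallest that 3 against 3 arrays allow). Of 15 oligodendrocyte markers 11 were higher, 0 lower and 4 did not pass, with means per array of 10.88 to 10.97 against 11.14 to 11.37 (exact permutation p = 0.1). Their leading gene was Mal, which encodes a myelin proteolipid (0.66, SE 0.09, limma adjusted p = 0.00493). Both lists moved in the direction of Acot1 and Acot11, and their part in the members' differences was not tested. In whole tissue, more cells of a type and more RNA per cell cannot be told apart.

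Of the 12 hippocampal neuron markers 5 were higher, 0 lower and 7 did not pass. At an unadjusted limma p under 0.05 there were 9 higher and 1 lower, and 9 of the 12 had a higher mean in L26. The 2 with the smallest p were Bok (0.39, SE 0.05) and Fibcd1 (0.45, SE 0.06), both past the limma threshold. The list mean was 0.22 higher (exact permutation p = 0.1). The leptomeningeal mean per array was 8.34 to 8.59 in wild type against 8.62 to 8.84 in L26, 0.29 higher and without overlap (exact permutation p = 0.1), with 2 of 12 markers higher and 0 lower. The astrocyte mean per array was 10.98 to 11.03 in wild type and 11.02 to 11.04 in L26, with 0 of 13 markers higher and 1 lower (limma, 2 higher and 2 lower at an unadjusted p under 0.05). For microglia the range was 9.56 to 9.69 against 9.65 to 9.72, with 4 of 12 higher and 1 lower. For choroid plexus and ependyma it was 8.40 to 8.96 against 8.56 to 9.30, with 3 of 13 higher and 1 lower. The exact permutation p of these 3 lists was 0.2, 0.4 and 0.4. The 1 choroid plexus gene called lower was Kcne2, a potassium channel subunit (-1.73, SE 0.16, limma adjusted p = 0.00058). Of the 13 genes of that list, 12 had a higher mean in L26, with a list median of 0.327. Among them was Tmem212 (0.69, SE 0.11, limma adjusted p = 0.0096). The part of these lists in the members' differences was not tested.

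The other genes of acyl-CoA metabolism were mostly without a call. Over 121 measured genes in 7 lists, 6 rose, 0 fell and 115 did not pass, with a median difference of 0.027 against 0.01 over all genes. Of all 18193 genes, 2.63% passed as higher and 2.57% as lower. Among 17 other thioesterases and related hydrolases 0 passed (limma, 1 higher and 0 lower at an unadjusted p under 0.05), with a median of -0.003. The nearest was Them4, a mitochondrial thioesterase, at 0.26 (SE 0.07, adjusted p = 0.0622). Among 15 acyl-CoA synthetases, which run the opposite reaction, 0 passed (limma, 2 higher and 0 lower at an unadjusted p under 0.05), with a median of 0.013. Acss2, which activates acetate, had 0.19 (SE 0.06, adjusted p = 0.126), and Slc27a2 had 0.27 (SE 0.10, adjusted p = 0.175).

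Genes that bind acyl-CoA or fatty acids included the largest rise of these lists. Of 13 measured, 2 rose, 0 fell and 11 did not pass, with a median of 0.007. Fabp7, which encodes the fatty acid binding protein of radial glia and astrocytes, read 10.84, 10.68 and 10.71 in wild type and 11.52, 11.81 and 11.64 in L26. All its L26 values lay above wild type, with a rise of 0.91 (SE 0.08, limma adjusted p = 0.000497). Dbi, the acyl-CoA binding protein, rose by 0.34 (SE 0.05, adjusted p = 0.00875) on a probe set with the suffix _x_at (probes that may cross-hybridize), while 3 further Dbi probe sets had 0.32 to 0.44. Fabp3 had -0.22 (SE 0.07, adjusted p = 0.0997), with -0.01 on its other probe set, and Acbd6 -0.17 (SE 0.06, adjusted p = 0.141).

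Fatty acid oxidation showed single genes. Of 24 genes of the carnitine shuttle and mitochondrial oxidation, 1 rose, 0 fell and 23 did not pass, with a median of 0.067. That gene was Slc25a20, the carnitine-acylcarnitine carrier, with a rise of 0.36 (SE 0.08, limma adjusted p = 0.0281), a call kept without wild type replicate 3 and ended by leaving out any of the other 5 arrays or by the replicate block. Echs1, which hydrates enoyl-CoA, had -0.20 (SE 0.05, adjusted p = 0.0731), and Crat, carnitine acetyltransferase, had 0.13 (SE 0.05, adjusted p = 0.21), with -0.02 and 0.03 on its other 2 probe sets. Of 14 peroxisomal genes 1 rose, 0 fell and 13 did not pass, with a median of -0.023. Ech1, a dienoyl-CoA isomerase, rose by 0.43 (SE 0.07, adjusted p = 0.0108), a call lost without L26 replicate 3. Phyh had -0.11 (SE 0.05, adjusted p = 0.243) and Decr2 -0.17 (SE 0.08, adjusted p = 0.279).

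The PPAR list and the list of fatty acid synthesis also had 1 call each. Of 20 PPARs, partners and classical targets, 1 rose, 0 fell and 19 did not pass, with a median of 0.033. Rxrg, a retinoid X receptor that pairs with PPARs, read 7.61, 7.50 and 7.62 against 8.21, 7.97 and 8.01, a rise of 0.49 (SE 0.07, limma adjusted p = 0.0076). Pdk4, a pyruvate dehydrogenase kinase gene that fasting and PPAR alpha raise in other tissues, had -0.40 (SE 0.13, adjusted p = 0.121), and Ppara itself had -0.17 (SE 0.06, adjusted p = 0.145). The other 2 Ppara probe sets had -0.18 and 0.19, and the mean of all 3 was -0.06. Of 21 genes of synthesis, elongation and desaturation 1 rose, 0 fell and 20 did not pass, with a median of 0.04. Elovl1, an elongase of saturated very long chains, rose by 0.37 (SE 0.07, adjusted p = 0.0232) on an _x_at probe set, with 0.07 to 0.44 on its 3 others. The Elovl1 call was lost without wild type replicate 1, wild type replicate 2, L26 replicate 2 or L26 replicate 3. Scd1 had 0.21 (SE 0.06, adjusted p = 0.1) and Elovl6 0.17 (SE 0.06, adjusted p = 0.132), with -0.12 and 0.20 on its other 2 probe sets. The vascular and oligodendrocyte markers given above were higher on the same arrays, and their part in these rises was not tested.

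**Figure D4:**
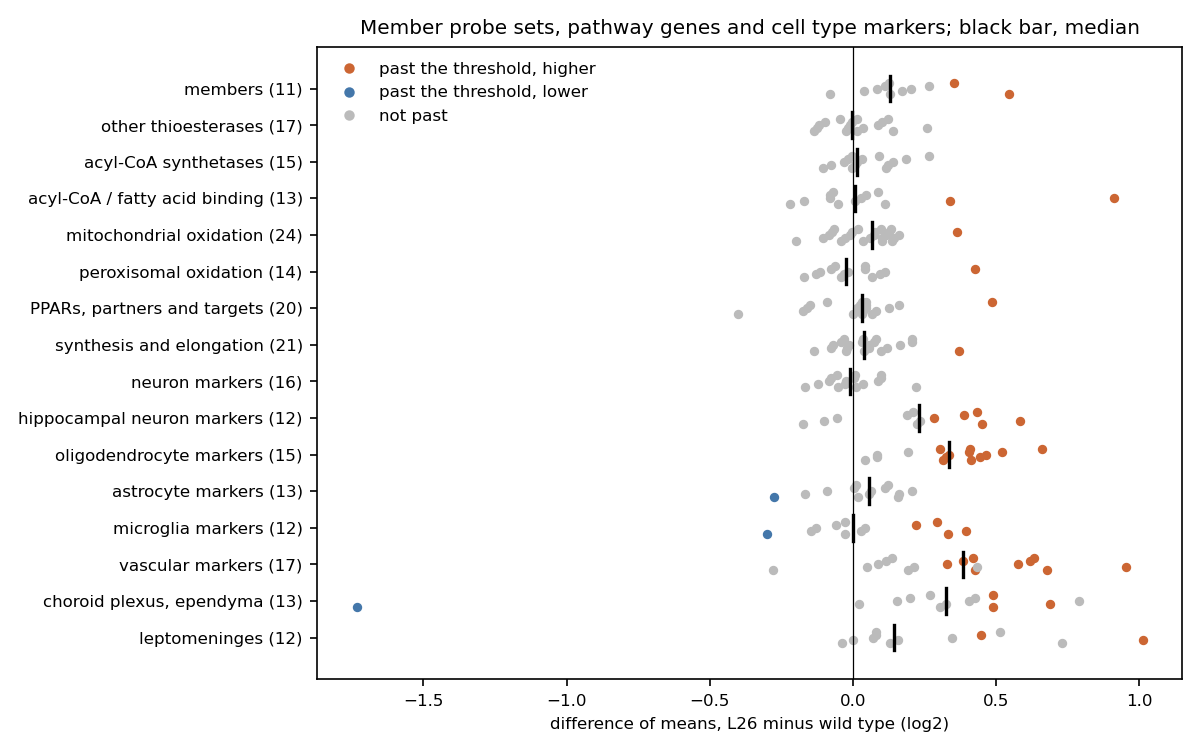
Difference of means (L26 minus wild type, log2) of the 11 member probe sets, of the genes of 7 acyl-CoA and fatty acid lists and of 8 marker lists, with the number measured in brackets and a black bar at each median. The member median is 0.13, the medians of the 7 pathway lists lie between -0.023 and 0.067, and those of the vascular and oligodendrocyte markers are 0.387 and 0.337.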

How the data were processed

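The authors deposited log2 expression values for 6 Affymetrix mouse genome arrays. They are RMA values made with affy, per the submitters' processing notes, which as used here name no version. Such values have no detection calls, and small fold changes of dim transcripts can be compressed. For arrays the number per group limits the precision.

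Of 45101 probe sets 64 controls were left out and 45037 were tested with no filter. Symbols came from the platform annotation (34945 probe sets with 1, 932 with several, 9160 with none). L26 was compared with wild type in limma 3.58.1 (R 4.3.3, two-sided, Benjamini-Hochberg over probe sets, or over 18193 genes for lists and neighbours, threshold 0.05), with code checked on simulated data. Per-array marker means were compared by exact permutation. The members, lists and tests were chosen with earlier results of these data known. Named are all member probe sets, up to 4 called and 2 other genes per pathway list and up to 2 per marker list by p, called neighbours, and the 3 genes most like each called member. Upstream windows came from the RefSeq promoter table (GRCm38.p6), aligned with Biopython 1.88.

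Alternatives were a replicate block, each array left out, repeated quantile normalization, median centring, removal of the dimmest 40%, an intensity trend with a robust prior, removal of _x_at and _s_at probe sets, a threshold of 0.1 and the mean of a gene's probe sets.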

Additional observations from a re-analysis of the deposited data

How the results depend on the processing

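The Acot1 call and its direction held in all 13 alternatives run at probe set level, with differences from 0.49 to 0.60. The count of member probe sets past the threshold as higher, 2 as reported, was 1 with the replicate block and 4 both without the dimmest 40% of probe sets and at an adjusted p of 0.1, where Acot2 1439478_at and Acot6 1428803_at joined. It was 1 to 2 with each array left out. The calls as higher over all probe sets moved as well, from 892 to 645 with the replicate block and 1725 at an adjusted p of 0.1. They were 986, among fewer probe sets, without the dimmest 40%, and 356 to 787 with each array left out. The count of member genes, 4 as reported, was 1 with the replicate block and 1 to 2 with each array left out. It was 2 with the mean of a gene's probe sets and 3 with centred arrays, where Acot2 lost its call. Deviations of same-numbered arrays from their group means correlated at -0.038, -0.07 and 0.154. Differently numbered arrays were not set beside them, so whether the replicate numbers pair the arrays was not settled. Pathway genes that rose, 6 as reported, numbered 3 to 7 with each array left out. Pathway genes that fell, 0 as reported, numbered 1 with centred arrays and with the mean of a gene's probe sets, and 2 with the trend and robust prior and at an adjusted p of 0.1. Chromosomal neighbours past the threshold, 0 as reported, numbered 2 with centred arrays, without the dimmest 40% and with the trend and robust prior, 3 at an adjusted p of 0.1, and 0 to 2 with each array left out. Signs that turned were those of values near 0: with each array left out, the Acot9 and Acot10 probe set ran from -0.09 to 0.01, Acot3 from -0.085 to 0.05 and Acot5 from -0.0683 to 0.0517. The causes of these changes were not tested. No member probe set changed sign in any alternative run, though small differences moved in size: Acot7 ran from 0.01 to 0.05, Acot8 from 0.07 to 0.19, Acot9 from -0.11 to -0.04 and Acot13 from 0.03 to 0.15. Signal over background cannot be judged without detection calls, and the dimmer probe sets of Acot2 (1422996_at) and Acot6 (1460388_at) drop out of the fit without the dimmest 40%.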
